A study of Mus musculus with 2 samples.

Results

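The barcodes described here are the globin-rich ones left in liver cell suspensions after erythrocytes had been depleted. A barcode was taken with at least 300 genes and at most 25% mitochondrial counts when Hba-a1, Hba-a2, Hbb-bs and Hbb-bt, the adult alpha and beta globin genes, together made at least 500 per 10000 of its counts. It also had to hold under 20 per 10000 counts of the Kupffer cell genes Clec4f, Vsig4, Cd5l and C6, and under 20 per 10000 of the endothelial genes Ptprb, Kdr, Stab2 and Gpr182. This gave 66 of 16716 kept barcodes, of which 30 came from the library labelled knockout and 36 from the library labelled control. Globin counts chose them, so their globin levels are a description.

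Single-cell RNA sequencing had been done with the BD Rhapsody whole transcriptome assay on livers of mice after partial ligation of the inferior vena cava (pIVCL), a model of congestion of the liver. The library labelled knockout had the genotype Cdh5-CreERT2; Ctgffl/fl, in which a tamoxifen-inducible Cre is driven by the endothelial Cdh5 promoter, and the library labelled control was Ctgffl/fl without Cre. Both genotypes therefore carried floxed alleles of Ctgf (Ccn2), both animals had pIVCL, and each library stood for 1 mouse, the first described as male and the second as its littermate. Hepatocytes had been spun out and dead cells and erythrocytes removed on a Percoll gradient, and the labels gave no age, tamoxifen dose or time after ligation.

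The sample titles contradicted the genotypes, since the Cre-bearing sample was titled as the littermate control. Groups follow the genotype. Among kept barcodes with at least 60% of 8 endothelial markers, Ccn2 stood at 60.9 counts per 1000000 non-globin counts (CPM) in the library labelled knockout and at 626 in the library labelled control, the direction that the genotype labels give. With 1 library a label there is no test between them. The 95% intervals below are exact and cover counting error only.

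Red cells arise from progenitors that divide while they fill with haemoglobin, made of alpha and beta globin chains and haem. Late erythroblasts then lose the nucleus, and the resulting reticulocytes live on stored RNA while they clear ribosomes and mitochondria and become erythrocytes. In the adult mouse this takes place mainly in marrow and spleen, and the liver is an erythropoietic organ before birth, while circulating red cells pass through its sinusoids throughout life.

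Some of the genes that the results turn on are shown first by their promoters, because they share regulators in erythroid cells. GATA1 is known to bind GATA motifs, and the zinc finger factor KLF1 to bind CACC boxes. The 110 bases before the start site are given from RefSeq on GRCm38.p6, which is not the build of the counts, 5′ to 3′ on the gene's strand. Capitals mark the GATA motif, which is AGATAA or the same letters with T first, G last or both, and the CACC-type motif CCNCNCCC, each on either strand.
Hbb-bs, chr7:103827929-103828038, minus strand: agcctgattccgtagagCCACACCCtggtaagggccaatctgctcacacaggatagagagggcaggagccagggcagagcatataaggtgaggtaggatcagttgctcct
Hbb-bt, chr7:103813924-103814033, minus strand: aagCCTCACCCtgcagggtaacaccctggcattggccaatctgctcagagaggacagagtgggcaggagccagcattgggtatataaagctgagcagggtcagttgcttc
Alas2, chrX:150547307-150547416, plus strand: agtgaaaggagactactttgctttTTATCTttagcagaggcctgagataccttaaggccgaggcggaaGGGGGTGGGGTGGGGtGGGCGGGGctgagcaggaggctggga
Klf1, chr8:84901872-84901981, plus strand: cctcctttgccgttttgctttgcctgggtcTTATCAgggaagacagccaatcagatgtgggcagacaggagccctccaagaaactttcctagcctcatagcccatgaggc

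Both beta globin promoters held 1 CACC-type match, starting 93 bases before the start site in Hbb-bs and 107 bases before it in Hbb-bt. Alas2, the erythroid enzyme of the first step of haem synthesis, held 1 GATA match 86 bases upstream and 4 CACC-type matches on the other strand, of which the first 3 overlap. Klf1 held 1 GATA match 80 bases upstream. Over the 32851 promoters of the same table, 11.5% held a GATA match in this window, 33.1% a CACC-type match and 1.92% both. A match is a run of letters and not a shown site. Of the 4 adult globin genes and 12 further erythroid markers looked up, 12 had an entry, and 4 of these held a GATA match and 6 a CACC-type match. The windows of both alpha globin genes, Hba-a1 and Hba-a2, and of Epb42 held neither.

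The coding sequences of Hba-a1 and Hba-a2 differ at 1 of 429 bases, and those of Hbb-bs and Hbb-bt at 1 of 444 bases, in the GENCODE M21 transcripts. Counts of either gene of a pair may therefore hold reads of the other, and the sums are safer than the split. Globin shares below are sums, and the values given for Hba-a1 alone and for the share of Hbb-bt carry this limit.

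The label of erythroid cells held for only some of the 66 barcodes. Of 12 non-globin erythroid markers, 11 were among the files' genes, with Alas2, Slc4a1, Klf1, Gata1, Rhag, Ermap, Epb42, Tspo2 and Gfi1b among them. At least 3 of the 11 had a count in 17 of 30 globin-rich barcodes of the library labelled knockout (56.7%, exact binomial interval 37.4 to 74.5) and in 10 of 36 of the library labelled control (27.8%, 14.2 to 45.2). The same was true of 7 of 8769 other kept barcodes in the library labelled knockout and 17 of 7881 in the library labelled control. Of these, 5 and 3 had enough globin but failed the Kupffer or endothelial limits. In B-cell-rich barcodes outside the 66, which should lack these genes, it was true of 0 of 273 in the library labelled knockout (upper limit 1.34%) and 0 of 303 in the library labelled control (1.21%). They had a median of 4229 and 5095 counts, while the globin-rich ones had 4050 and 6138. This background leaves out B-cell-rich barcodes that the globin rule took. With those included, at least 3 markers were seen in 0 of 276 in the library labelled knockout and 2 of 311 in the library labelled control. In T-cell-rich barcodes, globin-rich ones included, it was 1 of 395 and 1 of 269. The 66 barcodes are called globin-rich below, not erythroid.

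They fell into 4 kinds. In 22 barcodes globins made at least 50% of counts and under 8 erythroid markers were seen. Another 4 barcodes held at least 8 of the 11 erythroid markers. In 34 barcodes at least 60% of the markers of another liver or blood cell type were present, and 6 barcodes were none of these. The limits of 8 markers and 60% were chosen after the values had been seen, so the kinds carry no test. By library the 4 kinds held 19, 2, 8 and 1 barcodes in the library labelled knockout, and 3, 2, 26 and 5 in the library labelled control. No barcode lay between a globin share of 38.7% and one of 50.5%.

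**Figure D1:**
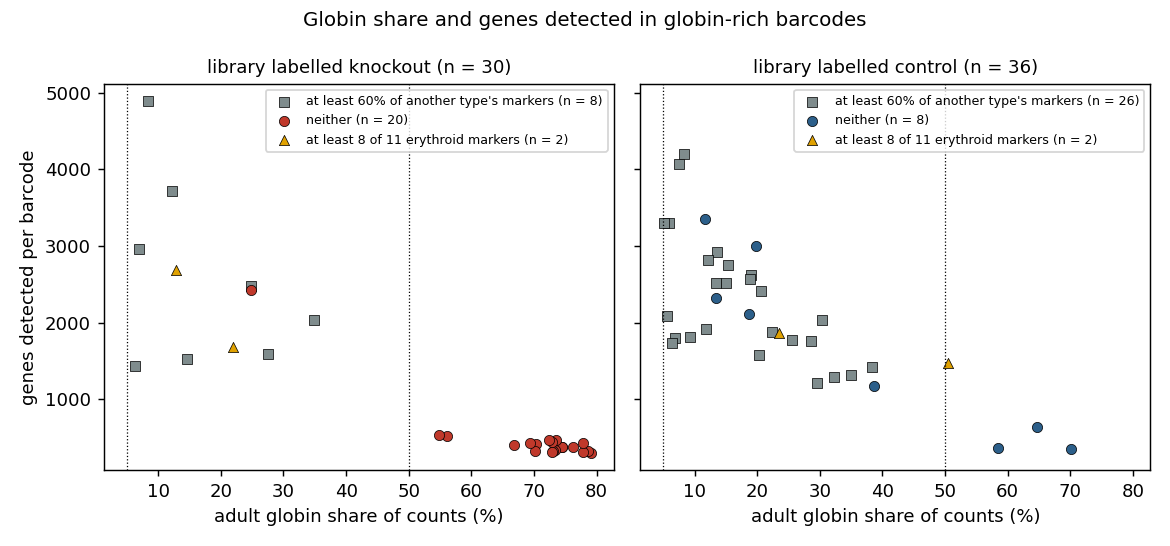
Each point is 1 globin-rich barcode, with the share of its counts from adult globin genes in percent on the x axis and the number of genes detected on the y axis, for the library labelled knockout (left, n = 30) and the library labelled control (right, n = 36). Dotted lines mark 5% and 50%; the 19 barcodes past 50% in the left panel all had 304 to 539 genes, and the points under 50% had at least 1173.

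Barcodes with at least 50% globin counts made 19 of 30 globin-rich barcodes in the library labelled knockout (63.3%, 43.9 to 80.1) and 4 of 36 in the library labelled control (11.1%, 3.11 to 26.1). As a share of kept barcodes they were 0.216% (0.130 to 0.337) in the library labelled knockout and 0.0505% (0.0138 to 0.129) in the library labelled control, intervals that come close but do not overlap. Below 50% the order was the other way, with 11 barcodes (0.125%, 0.0624 to 0.224) in the library labelled knockout and 32 (0.404%, 0.277 to 0.570) in the library labelled control. The total share therefore differed less: 0.341% (0.230 to 0.486) in the library labelled knockout and 0.455% (0.319 to 0.629) in the library labelled control. Erythrocytes had been removed before capture, so these shares describe the suspension and not the liver.

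**Figure D2:**
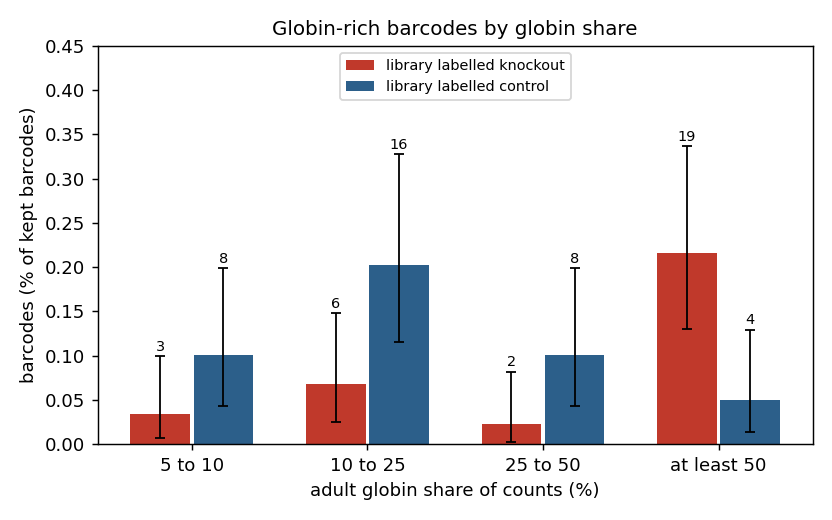
Bars give globin-rich barcodes as a percentage of kept barcodes (y axis) by their adult globin share of counts (x axis, percent), for the library labelled knockout (left bar) and the library labelled control (right bar). Error bars are exact 95% binomial intervals and the numbers over them count barcodes; the library labelled knockout was higher at 50% and above (19 against 4) and lower in the other 3 classes, each of which holds under 10 barcodes in the library labelled knockout.

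The median globin share over all members was 69.8% in the library labelled knockout, with a range of 6.27% to 79.1%, and 18.9% in the library labelled control, with a range of 5.20% to 70.1%. The lowest shares inside the rule were 627 and 690 per 10000 in the library labelled knockout and 520 and 556 in the library labelled control. The highest just outside it, among barcodes that met the other limits, were 68.4 and 64.7 per 10000 in the library labelled knockout and 438 and 263 in the library labelled control. The rule thus cut through an empty stretch in the library labelled knockout and close to 2 barcodes in the library labelled control.

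The limit on genes bore on the count of barcodes with at least 50% globin. Among the 71 barcodes of the library labelled knockout with enough globin, 19 had under 300 genes, 18 of them with at least 50% globin. In the library labelled control, 6 of 82 had under 300 genes, 1 of them with at least 50% globin. The limit on mitochondrial counts alone removed 3 and 17 such barcodes, and the Kupffer or endothelial limits 19 and 23. With no minimum of genes the members numbered 47 in the library labelled knockout and 37 in the library labelled control.

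Total counts were 129802501 in the library labelled knockout and 106208933 in the library labelled control, with 10000 barcodes each, and kept barcodes had median counts of 9506 and 7972. Adult globins were at a median of 0 per 10000 in kept barcodes of the library labelled knockout and 0.935 in those of the library labelled control. No globin count at all was seen in 61.9% of kept barcodes of the library labelled knockout and in 37.4% of those of the library labelled control. The libraries shared 2 barcode sequences, and no globin-rich barcode was among them.

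The 23 barcodes with at least 50% globin, called mostly-globin, were the 22 of the first kind and 1 barcode of 8 markers in the library labelled control. They were poor in genes and in ribosomal protein transcripts. The 19 of the library labelled knockout had 304 to 539 genes (median 382) and 3160 to 5394 counts. The 4 of the library labelled control had 349 to 1473 genes (median 502) and 3333 to 8444 counts. Thinned to 3340 counts each, 17 barcodes of the library labelled knockout had a median of 356 genes and 3 of the library labelled control had 573, against 1737 and 1748 in the other kept barcodes. Thinning left out 2 and 1 of the mostly-globin barcodes as too shallow.

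Ribosomal protein genes took a median of 0.538% of counts in the mostly-globin barcodes of the library labelled knockout and 0.593% in those of the library labelled control, while in kept barcodes they took 3.97% and 5.34%. Mitochondrial counts were at a median of 1.61% in the library labelled knockout and 6.72% in the library labelled control, and reached 24.0% and 23.7%. Both alpha globin genes were abundant in each barcode. Hba-a1 ranged over 827 to 1308 counts (median 995) in the 19 barcodes of the library labelled knockout, and had 849, 900, 920 and 1596 counts in the 4 of the library labelled control.

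Alpha globins made 66.6% of the globin counts of these barcodes in the library labelled knockout and 67.8% in the library labelled control, as counts not corrected for transcript length. Hbb-bt made 21.2% of beta globin counts in either library. The embryonic globins Hba-x and Hbb-y were all but absent over the 66 barcodes. Hba-x, the embryonic alpha-like chain, had 0 counts in each library, and Hbb-y, an embryonic beta-like chain, had 0 counts in the library labelled knockout and 1 in the library labelled control. Hbq1b, listed with them, had 7 counts in 6 of 30 barcodes of the library labelled knockout. It had 7 counts in 4 of 36 of the library labelled control. Hbq1a, also listed, had 2 and 0 counts in the same order.

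Alas2 was seen in each mostly-globin barcode, at 10 to 28 counts (median 22) in the 19 of the library labelled knockout and at 13, 21, 26 and 41 counts in the 4 of the library labelled control. The ranges overlapped. Fech, which inserts iron into the haem ring in the last step of the pathway, was also in every one, at 6 to 19 counts (median 11) in the library labelled knockout and 2, 7, 8 and 11 in the library labelled control. Enzymes between these steps had few counts. Cpox had 4 counts over the 19 barcodes of the library labelled knockout and 4 over the 4 of the library labelled control, all in 1 barcode, and Urod had 5 and 1.

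Slc25a37, the mitochondrial iron importer mitoferrin 1, had 4 to 38 counts (median 17) in the library labelled knockout and 0, 13, 16 and 27 in the library labelled control. Tfrc, the transferrin receptor through which erythroblasts take up iron, had 5 counts over 19 barcodes in the library labelled knockout and 4 over 4 in the library labelled control. Slc25a39, another mitochondrial carrier, had 77 counts in the library labelled knockout and 32 in the library labelled control, and Ncoa4, which delivers ferritin for breakdown, had 48 and 7. Over both libraries, log2 ratios to the other kept barcodes were 7.98 for Slc25a37, 4.99 for Slc25a39, 3.90 for Ncoa4 and 3.79 for Tfrc. They were 0.49 for the ferritin chain Fth1 and 0.67 for Ftl1.

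Among membrane and skeleton genes, Epb41, which encodes protein 4.1 of the membrane skeleton, had 6 to 52 counts (median 20) in the library labelled knockout and 6, 22, 24 and 25 in the library labelled control. Slc4a1, the anion exchanger band 3, had 0 to 19 counts (median 3) in the library labelled knockout and 0, 2, 6 and 15 in the library labelled control. It was detected in 15 of the 19 and in 3 of the 4.

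Abundant listed transcripts of late maturation included Tent5c, a poly(A) polymerase, and Bnip3l, the receptor that marks mitochondria for clearance in reticulocytes. Tent5c had 8 to 43 counts (median 24) in the library labelled knockout and 10, 16, 19 and 29 in the library labelled control. Bnip3l had 3 to 33 counts (median 13) in the library labelled knockout and 3, 9, 11 and 11 in the library labelled control. Ube2o, the ubiquitin ligase that removes ribosomes in reticulocytes, had a count in all 23.

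The erythroid regulators Klf1, Gata1 and Gfi1b and the membrane protein genes Rhag and Ermap had 0 counts over all 19 barcodes of the library labelled knockout, where 3 counts would have been 139.9 CPM. In the library labelled control Klf1 had 2 counts and Gata1 had 1, all in the same barcode, which also had 46 counts of the proliferation marker Mki67. Of the 16 listed erythroid transcription factors, 8 were at 0 over the 19 barcodes. Lmo2, a partner of GATA1 complexes, had 10 counts in 7 of the 19 and 1 count in the library labelled control, and Foxo3 had 6 and 3. The summed level of the list was 1166 CPM in the 19, against 1142 in the other kept barcodes of that library. In the library labelled knockout Mki67 had 1 count and Top2a, a topoisomerase of dividing cells, had 0. Malat1, a nuclear noncoding RNA, had 38 counts over the 19 barcodes of the library labelled knockout and 7 over the 4 of the library labelled control.

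**Figure D3:**
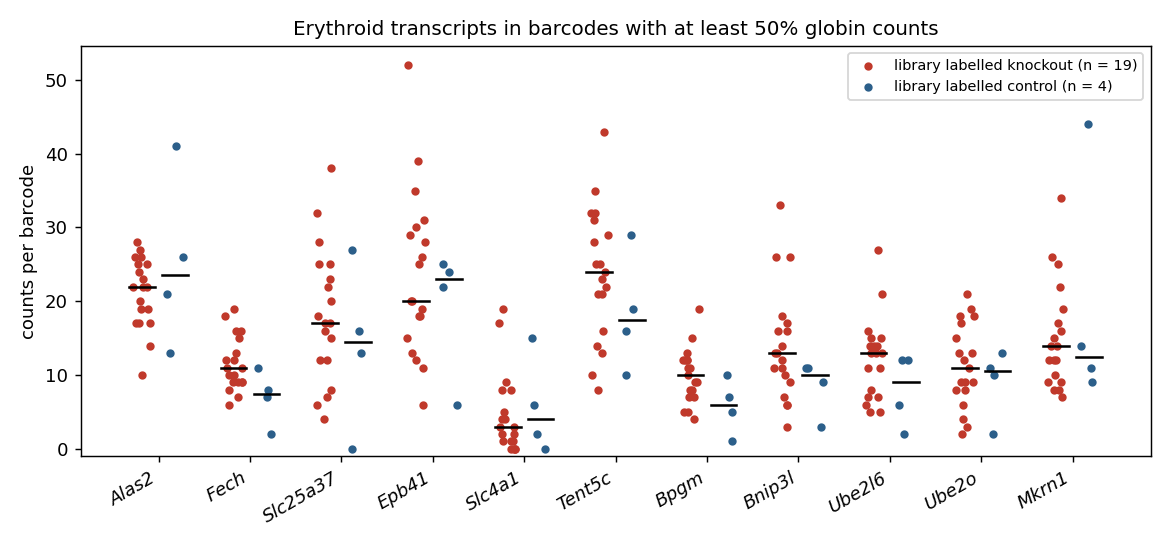
Counts per barcode (y axis) of 11 erythroid genes in the barcodes with at least 50% globin counts, for the library labelled knockout (left points, n = 19) and the library labelled control (right points, n = 4). Black lines are medians; the points of the library labelled control overlap those of the library labelled knockout for each gene.

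Whether the 19 barcodes of the library labelled knockout differed from the 4 of the library labelled control depended on the scaling. Per non-globin count, 148 genes counted as measured (20 counts in all and 10 CPM), and the rule on size called 73 of them at least 1.5-fold higher (49.3%) and 24 at least 1.5-fold lower (16.2%), with a median log2 ratio of 0.58. Per total count the numbers were 43 higher and 49 lower (median 0.04), and per globin count 30 higher and 59 lower (median -0.24). Without the barcode of 8 markers, 71 of 125 measured genes were higher (56.8%) and 14 lower (11.2%) per non-globin count.

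Of 13 measured late-maturation genes, 11 were higher and 0 lower per non-globin count (median log2 1.18), 8 and 0 per total count (0.65), and 4 and 1 per globin count (0.36). Without the barcode of 8 markers their median per non-globin count was 0.79, close to the 0.73 of all measured genes in that setting, with 11 higher and 0 lower. Bpgm, which makes the 2,3-bisphosphoglycerate that lowers the oxygen affinity of haemoglobin, was at 8811 CPM in the library labelled knockout and 2827 in the library labelled control (log2 ratio 1.64, 1.01 to 2.33), and its ratio per globin count was 0.82. Without the barcode of 8 markers the ratio per non-globin count was 1.42 (0.61 to 2.36).

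Haem synthesis had only 2 measured genes. Fech was at 10256 CPM in the library labelled knockout and 3441 in the library labelled control, a log2 ratio of 1.58 (1.004 to 2.20), which was 0.75 per globin count and, without the barcode of 8 markers, 1.02 (0.36 to 1.76) per non-globin count. Alas2 was at 18788 CPM in the library labelled knockout and 12412 in the library labelled control, and its log2 ratio of 0.60 (0.28 to 0.93) turned to -0.22 per globin count. Without that barcode it was 0.31 (-0.08 to 0.73) per non-globin count. The membrane genes also turned, with 3 of 5 higher per non-globin count (median 0.71) and 0 of 5 higher and 1 lower per globin count (median -0.11). Of 8 genes against oxidative damage or handling haem and carbon dioxide, 7 were higher per non-globin count (median 0.89) and 2 per globin count (0.07).

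Of the 33 genes with at least 100 counts that met the naming rule in these barcodes, Apol11b had the highest ratio, with 112 counts in the library labelled knockout, spread over 12 of 19 barcodes, and 1 count in the library labelled control. Its log2 ratio was 5.41 (2.90 to 10.7). The 1 count was in the barcode of 8 markers, and without it the ratio of 2.78 rested on the floor of 3 counts. In the barcodes with another type's markers the order was the other way, on 1 count against 16. Apol11b stood there at 0.0937 (0.00237 to 0.522) per 1000 globin counts in the library labelled knockout and 0.561 (0.320 to 0.910) in the library labelled control, intervals that overlap. In the 4 barcodes with at least 8 markers it was again higher in the library labelled knockout. It stood there at 8.77 (5.50 to 13.3), against 2.33 (1.28 to 3.92) in the library labelled control. Ucp2, a mitochondrial carrier, stood at 9231 CPM in the library labelled knockout and 14010 in the library labelled control (log2 -0.60, -0.94 to -0.26). Of its 114 counts in the library labelled control, 94 came from the barcode of 8 markers. Without it the direction turned, at 9231 CPM in the library labelled knockout and 5054 in the library labelled control (log2 0.87, 0.20 to 1.61). All these ratios compare 2 libraries, not genotypes, and set 19 barcodes against 4, or against 3 without the barcode of 8 markers.

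The 4 barcodes with at least 8 erythroid markers were 2 in the library labelled knockout, with 10 markers each, and 2 in the library labelled control, with 8 and 10. No other globin-rich barcode held more than 6. Globins made 21.9% and 12.8% of counts in the library labelled knockout and 50.5% and 23.5% in the library labelled control, and the barcodes had 1680 and 2688 genes in the library labelled knockout and 1473 and 1864 in the library labelled control. Of 33 cell cycle genes, 22 and 27 had a count in the library labelled knockout and 10 and 21 in the library labelled control. At least 20 of the 33 were seen in 3.68% of all kept barcodes of the library labelled knockout and 7.19% of those of the library labelled control.

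Mki67 had 62 and 72 counts in these barcodes of the library labelled knockout and 46 and 89 in those of the library labelled control. Top2a split them, with 1 and 24 counts in the library labelled knockout and 1 and 41 in the library labelled control. Cdk1, another cell cycle gene, had 0 and 3 counts in either library, with 0 in the barcodes of 1 Top2a count. Klf1 had 6 and 6 counts in the library labelled knockout and 2 and 4 in the library labelled control, and Gata1 had 9 and 1 against 1 and 7. Each of the 4 barcodes held both regulators, but Klf1, Gata1 and Rhag are among the 11 markers that chose them, so these counts are a description. Rhag, the ammonia and gas channel of the Rh complex, had 19 and 17 counts in the library labelled knockout and 0 and 16 in the library labelled control, so it was missing from the barcode with 50.5% globin. Tfrc had 46 and 32 counts in the library labelled knockout and 4 and 30 in the library labelled control, with the same barcode lowest.

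Cpox, the haem synthesis enzyme that acts on coproporphyrinogen, had 35 and 40 counts in the library labelled knockout and 4 and 32 in the library labelled control. The 4 counts are those given above for the barcodes past 50% globin, since the barcode of 50.5% globin belongs to both sets. Car2, carbonic anhydrase 2, had 108 and 146 counts in the library labelled knockout and 57 and 107 in the library labelled control. Of the early progenitor genes, Kit and Gata2 had 0 counts in all 4, and Myb had 1 count in 1 barcode of the library labelled knockout.

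Per 1000 globin counts, Slc4a1 stood at 18.8 (16.0 to 22.0) in these 4 barcodes and at 1.58 (1.28 to 1.94) in the 22 with at least 50% globin and under 8 markers. Car2 stood at 49.1 (44.5 to 54.1) in the 4 and 4.15 (3.65 to 4.70) in the 22. Alas2 was much closer, at 9.41 (7.46 to 11.7) in the 4 and 7.72 (7.03 to 8.46) in the 22. Tent5c ran the other way, at 3.41 (2.28 to 4.90) in the 4 and 8.45 (7.73 to 9.22) in the 22. Within the 4, Slc4a1 was at 34.3 (27.4 to 42.3) in the library labelled knockout and 12.3 (9.69 to 15.5) in the library labelled control. Car2 was at 101.3 (89.2 to 114.5) and 27.3 (23.3 to 31.9) in the same order. Neither pair of intervals overlapped. In the 22, Car2 was at 4.65 (4.09 to 5.27) in the library labelled knockout and 0.423 (0.0872 to 1.24) in the library labelled control. In each library both genes stood higher in the 4 than in the 22. The 4 were chosen on Slc4a1 and Alas2 among others, so these values describe them.

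The 34 barcodes with another type's markers were 8 of 30 in the library labelled knockout (26.7%, 12.3 to 45.9) and 26 of 36 in the library labelled control (72.2%, 54.8 to 85.8). None had a globin share of 50% or more. The markers of some such type were likewise present in most other kept barcodes, at 95.8% in the library labelled knockout and 88.1% in the library labelled control. B cell markers such as Cd79a led in 3 barcodes of the library labelled knockout and 7 of the library labelled control, T cell markers in 3 and 2, and monocyte markers in 1 and 9. Dendritic markers led in 1 and 0, stellate markers in 0 and 4, hepatocyte markers in 0 and 3, and endothelial markers in 0 and 1.

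**Figure D4:**
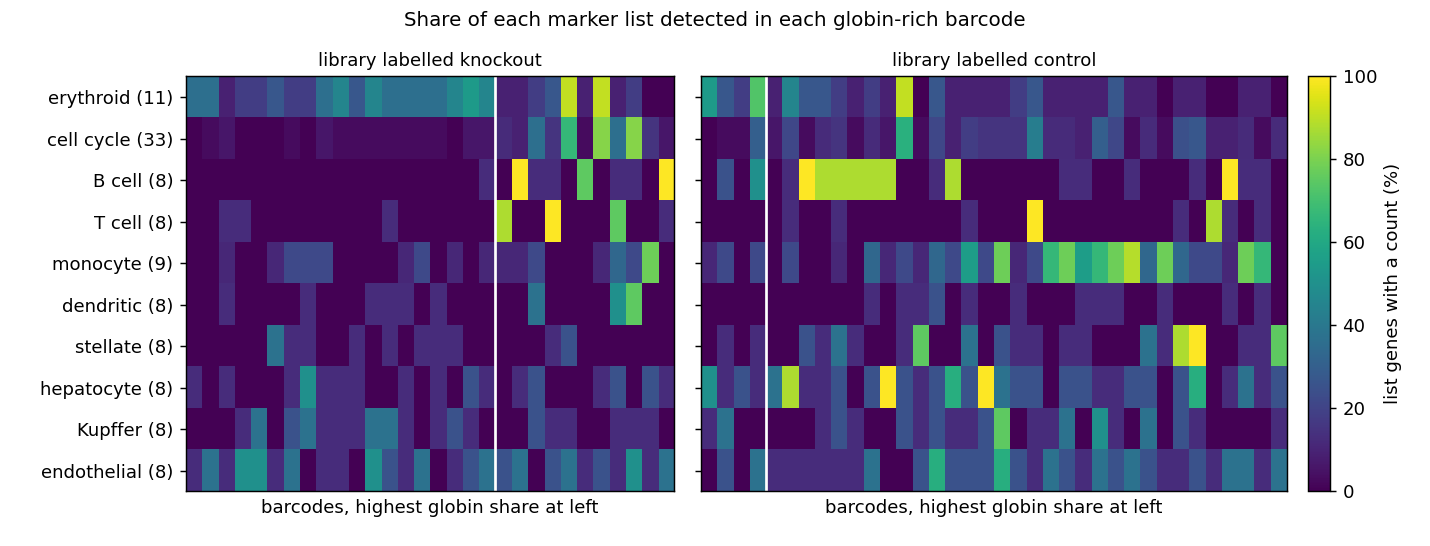
Colour gives the percentage of each marker list (rows, with the number of genes in the files) that had a count in each globin-rich barcode (columns, ordered by globin share, highest at left), for the library labelled knockout (left, n = 30) and the library labelled control (right, n = 36). White lines mark a globin share of 50%. To their left only the erythroid list passed 60%, in 1 barcode of the library labelled control. To their right each list shown did so in at least 1 barcode.

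Other transcripts of the erythroid lists were also counted in these 34 barcodes, Alas2 in 27, Epb41 in 30 and Slc4a1 in 7. Per 1000 globin counts, Alas2 stood at 6.63 (5.85 to 7.49) in the 34, against 7.72 (7.03 to 8.46) in the 22, intervals that overlap. Epb41 stood at 5.10 (4.42 to 5.86) against 8.34 (7.62 to 9.10), and Slc4a1 at 0.638 (0.413 to 0.941) against 1.58 (1.28 to 1.94). These sums mix kind with library, since 26 of the 34 came from the library labelled control and 19 of the 22 from the library labelled knockout. Within the library labelled knockout, Slc4a1 was at 0.0937 (0.00237 to 0.522) in the 8 against 1.65 (1.32 to 2.03) in the 19, and Epb41 at 4.40 (3.24 to 5.86) against 8.45 (7.69 to 9.27). Within the library labelled control the intervals overlapped, at 0.841 (0.539 to 1.25) in the 26 against 1.13 (0.487 to 2.22) in the 3 for Slc4a1, and 5.36 (4.55 to 6.28) against 7.47 (5.60 to 9.77) for Epb41. In the other kept barcodes, Alas2 stood at 11.4 per 1000 globin counts in the library labelled knockout and 7.54 in the library labelled control. Those barcodes are not free of globin, since they include 19 and 23 with enough globin that failed the Kupffer or endothelial limits.

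Alas2 had a count in 6 of the 8 such barcodes of the library labelled knockout and 21 of the 26 of the library labelled control, while it had one in 1.44% and 2.08% of other kept barcodes. At least 3 erythroid markers were seen in 1 of 8 and 6 of 26. The barcodes had 1437 to 4887 genes in the library labelled knockout and 1216 to 4199 in the library labelled control. Of the 34, the highest 5% of doublet scores in each library held 1 of 8 and 4 of 26. The part of joint capture or of free RNA in them was not tested.

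**Figure D5:**
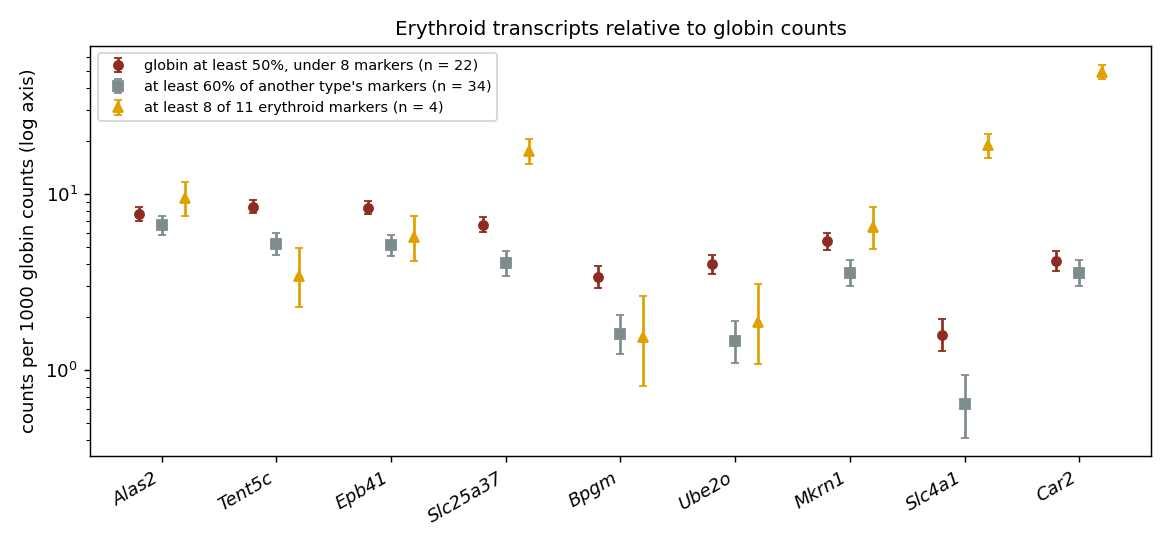
Counts per 1000 adult globin counts (y axis, log scale) for 9 genes, summed over both libraries, in 3 kinds of globin-rich barcodes: at least 50% globin with under 8 erythroid markers (n = 22), at least 60% of another type's markers (n = 34) and at least 8 of 11 erythroid markers (n = 4). Error bars are exact 95% Poisson intervals. Alas2 lies between 6.63 and 9.41 in all 3, while Slc4a1 and Car2 are highest in the 4 barcodes with many markers. Within the 4, Slc4a1 and Car2 differ between the libraries, which the sums do not show.

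The 6 remaining barcodes had 1173 to 3347 genes and 1 or 2 erythroid markers. Alas2 was present in all 6, at 6 counts in the 1 barcode of the library labelled knockout and 45 counts over the 5 of the library labelled control. Slc4a1 had 1 count in the library labelled knockout and 0 in the library labelled control.

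Summed over all 66, the globin-rich barcodes were set apart from the other 16650 kept barcodes by red cell genes. Of 10364 measured genes, 12.2% were at least 2-fold higher in the globin-rich barcodes and 16.1% at least 2-fold lower, by size alone. All 10 measured erythroid markers were higher, with a median log2 ratio of 9.45, as were 20 of 24 membrane genes (6.90), 7 of 9 haem synthesis genes (2.33) and 22 of 29 late-maturation genes (1.96). The erythroid transcription factors were higher in 8 of 15 (1.07), iron genes in 7 of 20 (0.48) and genes against oxidative damage in 7 of 17 (0.91). Progenitor genes were higher in 1 of 16 and lower in 6 (median -0.49), and genes of stress erythropoiesis higher in 1 of 17 and lower in 4 (-0.59). Cell cycle genes were higher in 15 of 31 and lower in 0 (0.85). Over all measured genes the median was -0.05.

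The leading gene of the sum was Slc4a1, at 925 CPM in the globin-rich barcodes and 0.469 in the others, in 29 of 66 barcodes. Alas2 stood at 2812 CPM in the globin-rich barcodes and 4.80 in the others, in 59 of 66. Alas2 had a count in 28 of 30 globin-rich barcodes of the library labelled knockout and 31 of 36 of the library labelled control, which made it the most widespread of the 11 markers.

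Between the libraries, over all members, several red cell lists were higher in the library labelled knockout, and lists of other cell types went both ways. Of 3195 measured genes, 689 were at least 1.5-fold higher (21.6%) and 982 at least 1.5-fold lower (30.7%) in the library labelled knockout. In counts simulated with counting error only, 23.4% of unchanged genes passed 1.5-fold, up or down. Haem synthesis genes were higher in 5 of 5 (median log2 1.44), membrane genes in 14 of 15 (1.82), late-maturation genes in 19 of 24 (1.37) and cell cycle genes in 16 of 17 (1.67), and these 4 medians stayed above 0 when scaled to all counts. Erythroid transcription factors were mixed, with 4 of 9 higher and 3 lower (0.31), as were iron genes, with 8 of 14 higher and 3 lower (0.73). Lower were 8 of 9 monocyte genes (-1.60), 6 of 6 stellate genes (-4.08) and 6 of 6 hepatocyte genes (-4.11). Higher were 2 of 2 measured T cell genes (1.51) and 2 of 2 dendritic genes (3.22). Of 8 B cell genes, 2 were lower and 6 in between (-0.24). Mostly-globin barcodes were 63.3% of the members in the library labelled knockout and 11.1% in the library labelled control, and none of the stellate- or hepatocyte-marked barcodes were in the library labelled knockout. Among barcodes under 50% globin, membrane genes were higher in 13 of 14 (median 1.46), cell cycle genes in 16 of 17 (2.14) and haem synthesis genes in 3 of 5 (1.22). Late-maturation genes were higher there in 2 of 19 and lower in 5 (-0.29). Over all 2997 genes measured there, 771 were higher and 854 lower (median 0.02). Barcodes with at least 8 erythroid markers were 2 of these 11 in the library labelled knockout and 1 of 32 in the library labelled control. The 2 held 42 and 44, and the 1 held 59, of the 171 Slc4a1 counts under 50% globin. For Mki67 they held 62, 72 and 89 of 277.

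Bpgm stood at 2026 CPM in the members of the library labelled knockout and 455 in those of the library labelled control, a log2 ratio of 2.16 (1.79 to 2.53). Among barcodes under 50% globin it stood at 256 CPM in the library labelled knockout and 354 in the library labelled control. Col1a1, a stellate cell collagen, had 1 count in the members of the library labelled knockout and 284 in those of the library labelled control. Ccn2 itself had 1 count in 1 of 30 barcodes of the library labelled knockout and 111 counts in 8 of 36 of the library labelled control, and 0 in all 4 barcodes with many erythroid markers.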

How the data were processed

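The deposited files hold raw whole-number counts per gene and barcode, 10000 barcodes a library, not normalized by the authors. Per the labels, suspensions were depleted of hepatocytes and erythrocytes, and sequencing used a DNBSEQ-G400RS. The submitters' processing notes name GRCm39. How reads were aligned, counted, collapsed by identifier and called as cells is not given in the sources used, so intervals may be too narrow even for counting error.

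Counts were summed over barcodes in each library. Globins were scaled to all counts and other genes to non-globin counts. Genes with 20 summed counts and 10 CPM (per 1000000 non-globin counts) in 1 counted as measured, and a count of 0 was set to 3 counts in a ratio. Intervals are exact at 95%: Clopper-Pearson for shares, Poisson for levels, conditional binomial for ratios (SciPy 1.17.1). Named genes are examples from a rule that took markers, list members of highest level or largest ratio, and the leading genes of each comparison. The members, lists and tests were chosen with earlier results of these data known. The ratio code was tested on counts simulated for 3195 genes of the comparison of all members, with counting error only. Intervals covered the set ratio for 96.8% of genes, and 23.4% of unchanged genes passed 1.5-fold, up or down. Scrublet in Scanpy 1.11.5 marked 1 barcode a library, so it had not worked, and doublets were kept; the top 5% of scores served as an alternative. Promoters came from RefSeq on GRCm38.p6. Some genes are not reported here.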

Additional observations from a re-analysis of the deposited data

How the results depend on the processing

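No paired analysis was possible because each label has 1 library, and leaving out a replicate was not possible for the same reason. Of the settings tried, 103 values that answer a comparison stayed within their limits and 51 moved, and 8 list medians turned in sign; the causes were not tested. Moved means outside the main 95% interval for a share, past 1 SD over barcodes for a median globin share, and past 1.5 times for a count of genes.

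The share of kept barcodes moved to 0.557% (knockout) and 0.745% (control) with no Kupffer or endothelial limit, and to 0.193% and 0.126% with at least 3 erythroid markers. At 5000 globin counts per 10000, a setting added after seeing the data, it was 0.216% and 0.0505%. In the library labelled knockout it was 0.125% with at least 600 genes and 0.533% with no minimum of genes. In the library labelled control it was 0.152% at 2500 globin counts per 10000 and 0.126% without barcodes holding another type's markers. The median globin share of the library labelled knockout was 39.3% with no Kupffer or endothelial limit and 14.5% with at least 600 genes, below its main 69.8% and, with 600 genes, below that of the library labelled control. The median of the library labelled control was 36.7% at 2500 and 61.6% at 5000 per 10000. Marker-positive shares were 27.3% in the library labelled knockout with at least 600 genes, and 50.0% and 75.0% in the library labelled control at 2500 and 5000 per 10000.

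Genes higher and lower in the library labelled knockout numbered 131 and 153 at 2500 globin counts per 10000, 73 and 24 at 5000, 196 and 186 with at least 3 erythroid markers, 193 and 263 without barcodes holding another type's markers, 259 and 447 when thinned, 5398 and 3422 with no filter on low counts, and 103 and 104 at 100 counts and 50 CPM. The number higher was 445 at 1000 per 10000 and 389 scaled to all counts, a scaling that shifts the median log2 ratio by -0.41 (median-of-ratios scaling by -0.24), and the number lower was 1682 as a mean of barcodes. Among barcodes with at least 50% globin it was 43 higher and 49 lower scaled to all counts, 30 and 59 scaled to globin counts, and 14 lower without the barcode of 8 markers.

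Genes at least 2-fold higher in the globin-rich barcodes numbered 3488 at 2500 and 5441 at 5000 per 10000, 477 with no Kupffer or endothelial limit, 844 with no mitochondrial limit, 3233 with at least 3 erythroid markers, 2751 without barcodes holding another type's markers, 736 scaled to all counts, 17015 with no filter and 514 at the strict filter. Those lower numbered 539 with no Kupffer or endothelial limit, 2968 scaled to all counts and 687 at the strict filter. Genes at 0 counts enter these numbers at 3 counts.

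The progenitor list turned from a median of -1.30 to 0.21 at 2500 per 10000, 0.35 with no Kupffer or endothelial limit, 0.015 with at least 3 markers and 0.042 at 5000 per 10000. The cell cycle list turned to -2.46 at 2500 and -4.10 at 5000 per 10000. At 5000 the progenitor value rested on 1 measured gene and the cell cycle value on 2, so neither describes a list. Without the barcode of 8 markers the cell cycle list had 1 measured gene there, at 2.15. With at least 600 genes the iron list turned to -0.037 and the late-maturation list to -0.44. The libraries hold 30 and 36 such barcodes, which limits every value here.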
